A study of Arabidopsis thaliana with 4 samples.

Results

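Glutathione S-transferases (GSTs) of the tau and phi classes were examined in shoot apices of Arabidopsis thaliana inflorescences. The 41 members were taken by locus identifier from a family chosen by its mp clv3 and WT read numbers in these data, 28 tau genes (GSTU1 to GSTU28) and 13 phi genes (GSTF2 to GSTF14), out of 27322 gene models in the table. All 41 were in the table. WT plants were Col-0, and the mutant plants, called mp clv3, carried the alleles mp319 and clv3-7. MP encodes an auxin response factor, and CLV3 encodes a signal peptide that keeps the number of shoot stem cells in check. Both genotypes were stratified for 2 days at 4°C and grown for 6 weeks in a greenhouse at 22°C with 16 h of light. Older flowers were taken off. The labels give 2 biological replicates per genotype, but only 1 value for each genotype is in the table, with no statement of how the replicates were joined. No difference therefore has a replicate check, and no test against replicate spread could be made. Since the same columns chose the family, all values are a description.

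Glutathione S-transferases attach the tripeptide glutathione to electrophilic compounds, or use it to reduce peroxides. The tau and phi classes are specific to plants. Many of their genes are known to respond to salicylate, oxidative stress, herbicides and auxin, and glutathione conjugates are carried into the vacuole by ABC transporters of the ABCC group. A few members have a dedicated role in flavonoid, camalexin or glucosinolate metabolism.

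Levels are given as RPKM, reads scaled to model length and to the genotype's total, which allows genes to be compared within a genotype. Total depth was 103347441 reads for mp clv3 and 101878433 for WT. Ratios of mp clv3 to WT were taken from reads divided by the genotype's total, and the interval after a ratio is an exact 95% Clopper-Pearson interval on read pairs. It covers counting error only, not the spread between plants or PCR duplicates. A model with 6 reads or fewer in both genotypes was given no ratio, and 0 reads were taken as 6 for a lower bound. The counting interval can reach below that bound. In whole apices, fewer cells of a type and less RNA per cell cannot be told apart.

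More members were higher than lower in mp clv3, in both classes. Of the 28 tau genes, 26 were above the read floor, and 15 of these reached 2-fold on the higher side, 4 on the lower side and 7 on neither. Of the 13 phi genes, 12 were above the floor, 7 of them 2-fold or more higher, 3 lower and 2 neither. GSTU2, GSTU3, GSTU9, GSTU14 and GSTF7 passed the floor only through mp clv3, and the 3 lower phi genes only through WT. Such members enter the counts and medians only through the genotype where they are high. Among all 23060 models above the floor, 11.5% were at least 2-fold higher and 23.8% at least 2-fold lower. The whole counting interval lay beyond 2-fold for 13 tau and 7 phi genes on the higher side, where the share over all models was 8.73%. On the lower side it did so for 4 tau and 3 phi genes, against 17.1% of all models. The median log2 ratio was 1.56 for the tau genes and 1.63 for the phi genes above the floor, and -0.15 for all models. Since the members were chosen with these ratios known, nothing further is read from the shares. Closest to the 2-fold line were GSTU13 on the inside (2.06-fold higher) and GSTU7 and GSTU20 on the outside (1.89-fold higher and 1.88-fold lower).

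**Figure D1:**
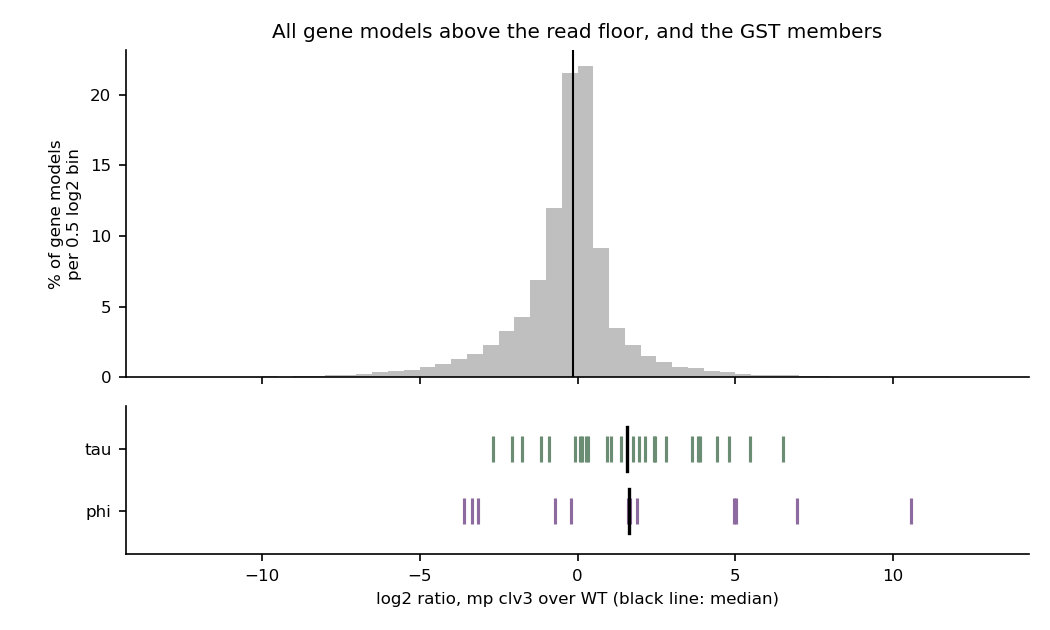
Distribution of the log2 ratio of mp clv3 to WT over 23060 gene models (upper panel, percent of models per bin, black line at the median of -0.15) and the ratios of the tau and phi members above the read floor (lower panel, 1 tick per gene, black lines at the medians of 1.56 and 1.63). Tau ratios run from -2.67 to 6.51 and phi ratios from -3.61 to 10.55, with ticks on both sides of 0 in each class.

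The member with the highest level in both genotypes was a phi gene, followed by a tau gene. GSTF9, which has glutathione peroxidase activity, was at 442 RPKM in WT and 1334 RPKM in mp clv3, where it ranked 16th of all models. GSTU19, a tau enzyme known for its induction by herbicide safeners, was at 243 RPKM in WT and 817 RPKM in mp clv3, at rank 50. GSTF2 was next at 757 RPKM and rank 54 in mp clv3, although it stood at 6.08 RPKM and rank 14474 in WT. At the other end, GSTF14 had 0 reads in both genotypes, GSTU15 had 2 reads in each and GSTU21 had 4 reads in each. The summed level of the tau genes was 569 RPKM in WT and 1264 RPKM in mp clv3, and that of the phi genes 648 and 3088 RPKM. In reads, the tau genes took 0.0550% of the WT total and 0.124% of the mp clv3 total, and the phi genes 0.0691% and 0.326%.

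A few genes made up most of each sum. GSTU19 held 42.7% of the tau RPKM in WT and 64.6% in mp clv3, while GSTU20 went from 19.3% to 4.62%. Within the phi class, GSTF9 held 68.2% in WT and 43.2% in mp clv3, whereas GSTF2 went from 0.939% to 24.5%. The share of GSTF6 was 1.48% in WT and 10.1% in mp clv3. In WT 2 phi genes reached 100 RPKM (GSTF9 and GSTF10), and in mp clv3 5 did (GSTF2, GSTF6, GSTF8, GSTF9 and GSTF10).

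**Figure D2:**
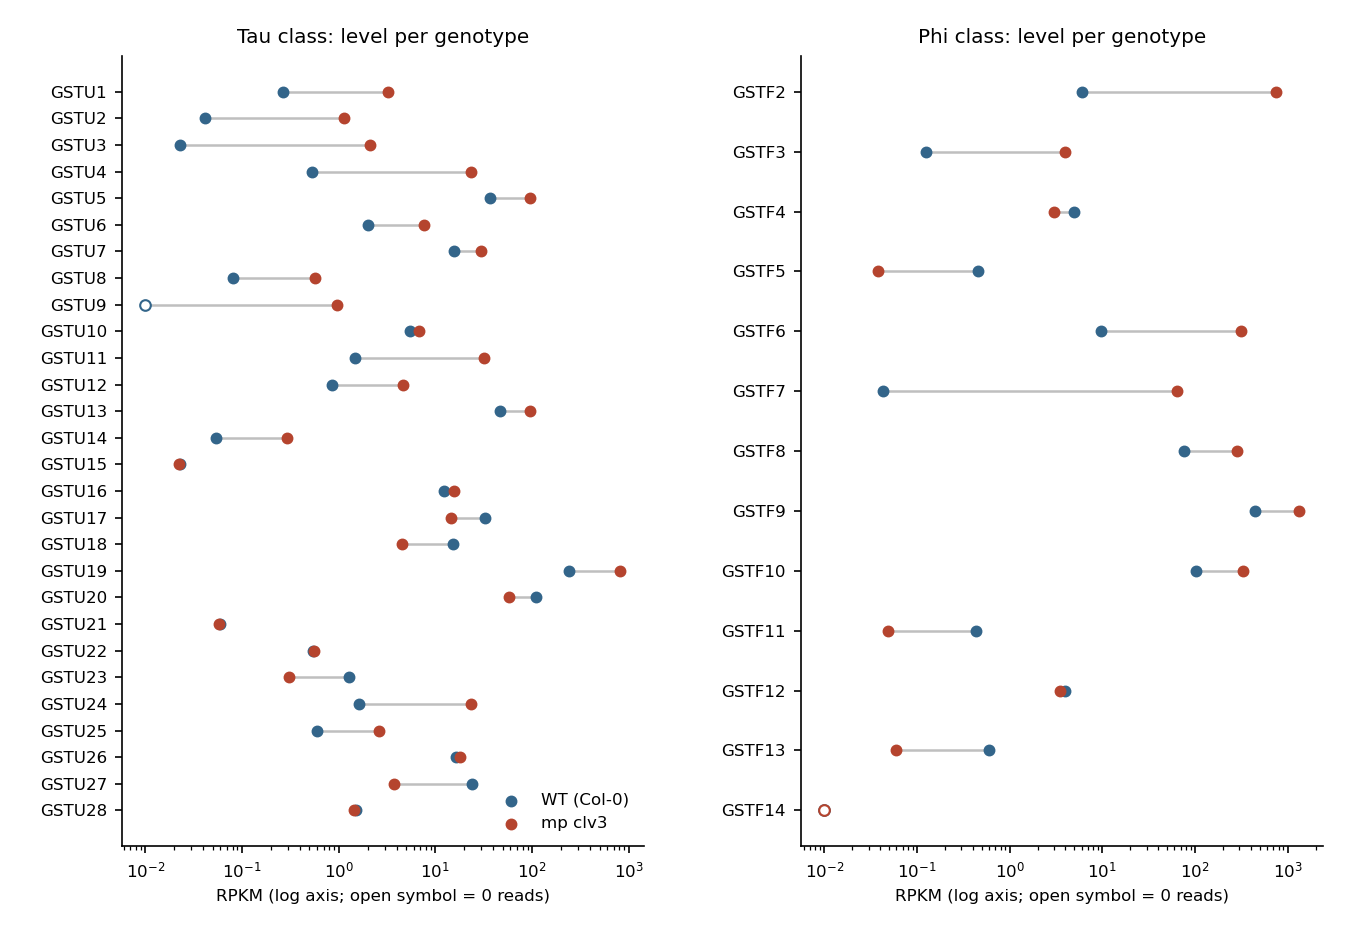
RPKM of each tau gene (left) and phi gene (right) in WT and mp clv3 on a log axis, 1 value per genotype, with open symbols for 0 reads placed at the left edge. GSTU15 and GSTU21 show a single visible point because both genotypes coincide, and GSTF2 spans from 6.08 to 757 RPKM.

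Among the phi genes, the widest ratios belonged to GSTF2, GSTF3, GSTF6 and GSTF7, which form pairs of close copies. The coding sequences of GSTF6 and GSTF7 were identical at 94.3% of aligned positions and those of GSTF2 and GSTF3 at 94.5%, the highest values in the class (median 50.2% over 78 phi pairs). Their first 150 coding bases, read from the TAIR10.1 genome through the RefSeq annotation, are shown because reads of such copies can only be told apart at the differing bases. Capitals mark those bases, 4 in each pair.
GSTF6: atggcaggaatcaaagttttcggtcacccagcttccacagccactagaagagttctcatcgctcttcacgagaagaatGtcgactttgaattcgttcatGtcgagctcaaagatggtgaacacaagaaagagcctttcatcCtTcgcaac
GSTF7: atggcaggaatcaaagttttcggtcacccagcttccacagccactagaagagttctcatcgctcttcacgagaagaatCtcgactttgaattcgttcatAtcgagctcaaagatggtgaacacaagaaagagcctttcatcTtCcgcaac
GSTF2: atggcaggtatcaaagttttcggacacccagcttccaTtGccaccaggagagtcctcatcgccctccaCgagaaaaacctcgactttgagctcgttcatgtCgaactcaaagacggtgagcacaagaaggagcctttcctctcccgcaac
GSTF3: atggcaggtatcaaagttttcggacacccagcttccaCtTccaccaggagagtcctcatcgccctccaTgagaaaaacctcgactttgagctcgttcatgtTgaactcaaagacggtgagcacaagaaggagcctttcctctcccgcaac

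Exact matches of the length of a read were few between these copies. Of all 100-base windows in the annotated GSTF7 transcripts, 1.53% also occurred in GSTF6, and of those in GSTF6 1.43% occurred in GSTF7. No 100-base window was shared by GSTF2 and GSTF3. No source here says how reads with several matches were placed, and exchange of reads within a pair was not tested.

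GSTF7 (AT1G02920), known as a pathogen- and salicylate-responsive phi gene, had 4 reads in WT and 6089 in mp clv3, or 0.0424 and 63.7 RPKM. It was 1501-fold higher (415 to 12399), with an interval that is wide because WT rests on few read pairs. Its neighbour GSTF6 (AT1G02930), which takes part in camalexin synthesis, had 1024 reads in WT and 33863 in mp clv3. GSTF6 was 32.6-fold higher (29.9 to 35.7), at 9.58 and 312 RPKM. The copies thus differed in WT, where GSTF6 was detected and GSTF7 nearly absent, while both were abundant in mp clv3.

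GSTF2 (AT4G02520), whose protein binds camalexin and other indole compounds, had 613 reads in WT and 77327 in mp clv3. It was 124-fold higher (111 to 139). On the opposite strand its annotated span shares 1442 bases with AT4G02510, which had 38665 reads in WT and 33964 in mp clv3, a difference in the other direction (1.15-fold lower). The 2 genes share 45.2% of the 100-base windows of GSTF2, and no source here says whether counting used the strand. GSTF3 (AT2G02930), the close copy of GSTF2 on another chromosome, had 12 reads in WT and 381 in mp clv3, or 0.125 and 3.93 RPKM. It was 31.3-fold higher (14.2 to 86.6), so both copies were higher in mp clv3 while GSTF3 stayed far below GSTF2 in level.

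The abundant phi genes GSTF8, GSTF9 and GSTF10 were all about 3-fold to 4-fold higher. GSTF8 (AT2G47730), an early stress-response gene with a plastid form of its protein, was at 76.7 RPKM in WT and 282 RPKM in mp clv3 (13551 and 50497 reads), 3.67-fold higher (3.58 to 3.77). GSTF9 (AT2G30860) had 43744 reads in WT and 133873 in mp clv3 and was 3.02-fold higher (2.97 to 3.06). GSTF10 (AT2G30870) had 10527 and 34087 reads, or 103 and 329 RPKM, and was 3.19-fold higher (3.09 to 3.29). GSTF9 and GSTF10 are neighbours on chromosome 2 (13138882 to 13142676, both on the plus strand) and were identical at 77.6% of coding positions. Their log2 ratios were 1.59 and 1.67.

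The other phi genes were low, and none was at least 2-fold higher. GSTF5, GSTF11 and GSTF13 had 36, 35 and 40 reads in WT and 3, 4 and 4 in mp clv3, all under 1 RPKM in both genotypes. GSTF5 was 12.2-fold lower (2.19 to 81.1), GSTF11 was 8.88-fold lower with the same interval, and GSTF13 was 10.1-fold lower (2.46 to 89.5). GSTF11, which acts in aliphatic glucosinolate synthesis, lies over 1096 bases of AT3G03200 on the opposite strand, which had 159 reads in WT and 82 in mp clv3. AT3G03200 holds 82.4% of the 100-base windows of GSTF11, and how reads were divided between these genes was not tested. GSTF4 was at 4.89 RPKM in WT and 2.99 RPKM in mp clv3, 1.64-fold lower (1.31 to 2.03). GSTF12 (TT19), needed for the transport of flavonoid pigments to the vacuole, was at 3.99 and 3.46 RPKM, and its interval spanned no difference (0.685 to 1.10 as a ratio to WT).

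**Figure D3:**
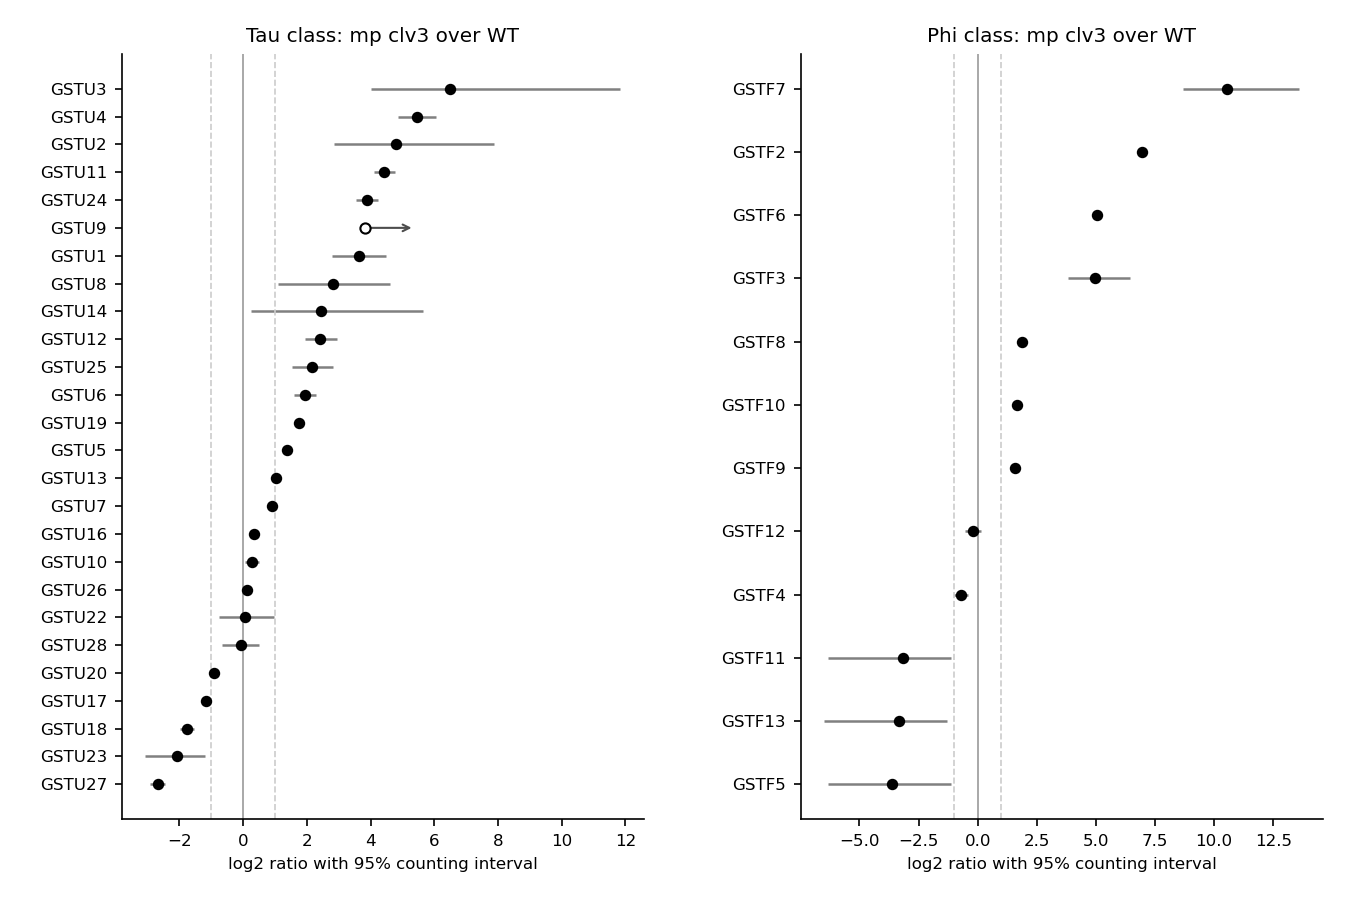
Log2 ratio of mp clv3 to WT with its 95% counting interval for the 26 tau genes (left) and 12 phi genes (right) above the read floor, ordered by ratio, with dashed lines at 2-fold. The open symbol with an arrow is the lower bound for GSTU9, which had 0 reads in WT, and the widest intervals belong to genes with few reads, such as GSTU3 and GSTU14.

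The longest tau array was higher in mp clv3 from end to end. GSTU1 to GSTU7 lie side by side on chromosome 2 (12617936 to 12632538, minus strand of TAIR10.1). All 7 were higher in mp clv3 with intervals above 1, as were 34.5% of all models. Of the 7, 6 were at least 2-fold higher, against 11.5% of all models. The array's median log2 ratio was 3.63. GSTU3 had 2 reads in WT and 185 in mp clv3 and was 91.2-fold higher (16.1 to 3660). GSTU4 had 49 and 2187 reads, or 0.531 and 23.4 RPKM, and was 44.0-fold higher (29.1 to 67.0). GSTU2 had 4 and 112 reads (27.6-fold higher, 7.29 to 233.5). All 3 were under 1 RPKM in WT, as was GSTU1, with 27 reads in WT and 338 in mp clv3 (12.3-fold higher, 6.90 to 22.2).

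The members of that array with a clear WT level had smaller ratios. This order is partly built in, because the WT reads are the denominator of the ratio. In addition, GSTU2 and GSTU3 passed the read floor only through mp clv3. GSTU5, isolated early as an auxin-inducible gene, was at 36.6 RPKM in WT and 94.4 RPKM in mp clv3, 2.58-fold higher (2.44 to 2.73). GSTU6 was at 2.01 and 7.68 RPKM, 3.82-fold higher (3.0 to 4.92). GSTU7 was at 15.8 and 29.8 RPKM, 1.89-fold higher (1.73 to 2.07). In summed RPKM the array went from 55.2 to 162, and GSTU5 held most of it in both genotypes. The coding sequences of GSTU1 and GSTU2 were identical at 85.5% of positions, the closest tau pair, and the annotated ends of these genes lie 19 bases apart. GSTU2, GSTU6 and GSTU7 share 24.2% to 55.3% of their 100-base windows with annotated opposite-strand loci. The loci for GSTU2 and GSTU7 (AT2G29485 and AT2G08340) are not among the counted gene models. That for GSTU6 (AT2G29430) had 64 reads in WT and 8 in mp clv3. GSTU1, GSTU3, GSTU4 and GSTU5 share no window with any other gene.

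Within the array of GSTU19 to GSTU23 on chromosome 1 (29467412 to 29488007, minus strand) neighbours went in both directions. GSTU19 had 24580 reads in WT and 83880 in mp clv3 and was 3.36-fold higher (3.30 to 3.43). GSTU20, next to it and linked to aliphatic glucosinolate synthesis, had 10065 and 5425 reads, or 110 and 58.4 RPKM, and was 1.88-fold lower (1.80 to 1.97). GSTU23 was at 1.29 RPKM in WT and 0.306 RPKM in mp clv3, 4.21-fold lower (2.27 to 8.42). GSTU22 had 48 and 51 reads, with an interval from 0.589 to 1.94 as a ratio to WT. Only GSTU19 of these 5 was at least 2-fold higher, against 11.5% of all models, and the array's median log2 ratio was -0.42.

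GSTU24, GSTU25 and GSTU26 form an array on chromosome 1 (5869543 to 5876620, plus strand). GSTU24 and GSTU25, both known to conjugate the explosive trinitrotoluene, were at 1.61 and 0.596 RPKM in WT and at 23.6 and 2.64 RPKM in mp clv3. GSTU24 was 14.7-fold higher (11.5 to 19.0) and GSTU25 was 4.44-fold higher (2.88 to 7.07). GSTU26, at 16.4 RPKM in WT, had 1561 reads there and 1740 in mp clv3, with an interval from 0.996 to 1.21. In this array the gene with the highest WT level had the smallest ratio, but WT reads are the denominator of the ratio, so nothing is read from this.

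The tandem pairs on chromosome 1 each kept 1 direction where both members could be read. GSTU11 had 159 reads in WT and 3470 in mp clv3, or 1.49 and 32.0 RPKM, and was 21.5-fold higher (17.1 to 27.1). Its neighbour GSTU12 had 82 and 446 reads and was 5.36-fold higher (3.83 to 7.68). GSTU13, which takes part in the indole glucosinolate branch of immunity, was at 46.7 and 96.4 RPKM, 2.06-fold higher (1.97 to 2.16). Next to it GSTU14 had only 4 and 22 reads (5.42-fold higher, 1.18 to 50.3). GSTU17 (ERD9), a gene of drought and light responses, was at 33.0 RPKM in WT and 14.7 RPKM in mp clv3, 2.25-fold lower (2.06 to 2.46). GSTU18 was at 15.4 RPKM in WT and 4.51 RPKM in mp clv3, 3.41-fold lower (2.91 to 3.99). The annotated spans of GSTU17 and GSTU18 overlap by 71 bases on the same strand. GSTU16 was at 12.3 and 15.5 RPKM, 1.25-fold higher (1.13 to 1.39), beside GSTU15 with 2 reads per genotype.

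**Figure D4:**
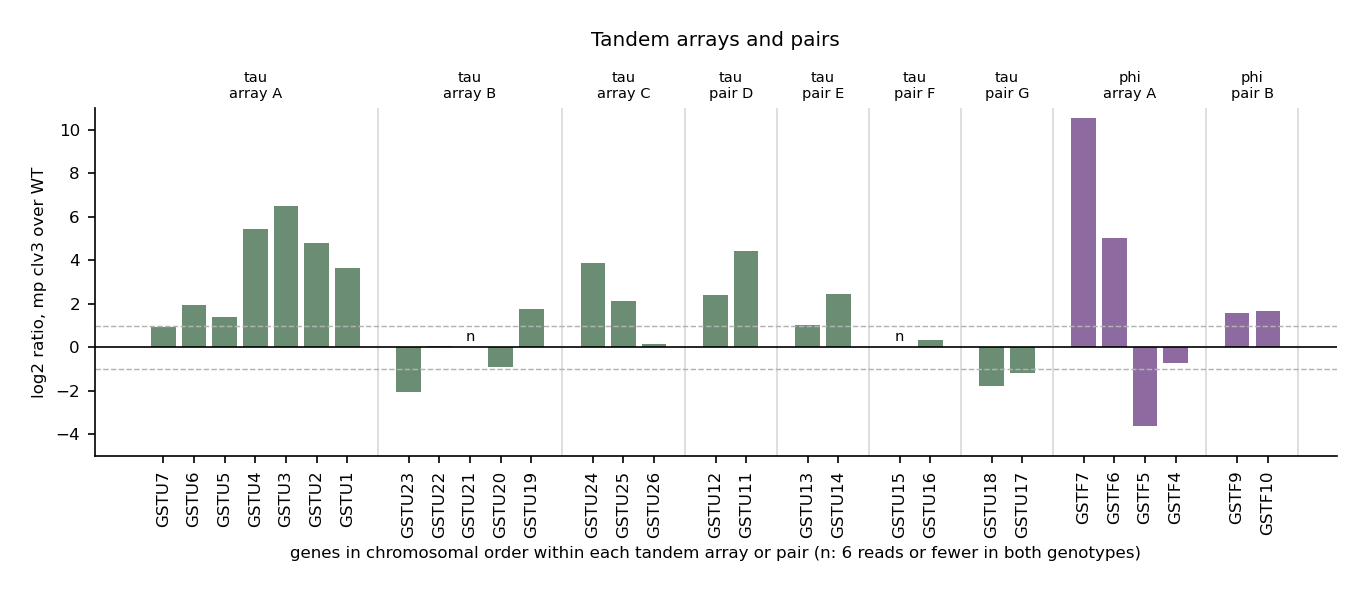
Log2 ratio of mp clv3 to WT for the genes of the tandem arrays and pairs, 1 bar per gene in chromosomal order, with dashed lines at 2-fold and an n for genes with 6 reads or fewer in both genotypes. All bars of the GSTU1 to GSTU7 array point up, while the arrays of GSTU19 to GSTU23 and of GSTF4 to GSTF7 hold bars on both sides of 0.

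Dispersed tau genes showed no common direction. GSTU9 had 0 reads in WT and 86 in mp clv3 (0.970 RPKM) and was at least 14.1-fold higher. GSTU8 had 7 and 50 reads and was 7.04-fold higher (2.13 to 24.4). GSTU27 (AT3G43800) was the tau gene with the lowest ratio, with 2183 reads in WT and 348 in mp clv3, or 23.9 and 3.76 RPKM, 6.36-fold lower (5.42 to 7.51). GSTU10 was at 5.54 RPKM in WT and 6.72 RPKM in mp clv3, 1.21-fold higher (1.03 to 1.42). GSTU28 was at 1.51 and 1.43 RPKM, with an interval from 0.630 to 1.43 as a ratio to WT.

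Neighbours in the phi array went in opposite directions. GSTF7, GSTF6, GSTF5 and GSTF4 follow each other on chromosome 1 (658578 to 666471, minus strand), with 487 bases between GSTF5 and GSTF6. GSTF7 and GSTF6 were higher by 10.55 and 5.03 on the log2 scale, whereas GSTF5 and GSTF4 were at -3.61 and -0.71. GSTF4 and GSTF5 were identical at 64.7% of coding positions. The sum over the array was 15.0 RPKM in WT and 379 RPKM in mp clv3, nearly all of the latter from GSTF6 and GSTF7.

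Promoters were searched for the core bound by TGA factors (TGACG) and the core of the W-box bound by WRKY factors (TTGAC), since both factor families are known regulators of defence-linked GST genes. The G-box (CACGTG) was searched as well, in the 250 bases before each annotated gene start and on both strands. TGACG was found for 11 of 28 tau genes (39.3%) and 3 of 13 phi genes (23.1%), and for 18.6% of 27443 nuclear protein-coding genes. TTGAC was found for 17 tau genes (60.7%) and 7 phi genes (53.8%), against 44.9% of all. CACGTG was found for 2 tau genes and 1 phi gene, against 6.49% of all. TTGACG would hold both of the first cores, and the window of 12 members overlaps another annotated gene. By call, TGACG was found for 8 of 15 tau genes at least 2-fold higher, 1 of 4 lower and 2 of 7 under 2-fold. TTGAC was found for 9, 1 and 6 of the same groups. Among the phi genes, TGACG was found for 3 of 7 higher, 0 of 3 lower and 0 of 2 under 2-fold, and TTGAC for 4, 0 and 2. CACGTG was found for 0, 2 and 0 of the same tau groups and for 1, 0 and 0 of the phi groups. The 2 tau genes with it were GSTU17 and GSTU18, and the GSTU18 window overlaps GSTU17.

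The examples shown, 4 higher genes and GSTU27 as the tau gene of lowest ratio, all hold at least 1 of these cores in a window free of other annotated genes, so they do not stand for all members. GSTF2 and GSTU2, with wider ratios than most of them, hold neither core, but their windows overlap another annotated gene (AT4G02530 and AT2G29490). GSTU13, GSTU14 and GSTF9, also at least 2-fold higher, hold neither core in windows free of other annotated genes. GSTU4 holds no TGACG. Each example is printed in the orientation of its gene, with every TGACG and TTGAC on either strand in capitals. They span chr2:12632539-12632788 (GSTU1), chr1:26338819-26339068 (GSTU11), chr5:25089627-25089876 (GSTU9) and chr1:659981-660230 (GSTF7) on the minus strand of TAIR10.1. The GSTU27 window is chr3:15660520-15660769 on the plus strand.
GSTU1: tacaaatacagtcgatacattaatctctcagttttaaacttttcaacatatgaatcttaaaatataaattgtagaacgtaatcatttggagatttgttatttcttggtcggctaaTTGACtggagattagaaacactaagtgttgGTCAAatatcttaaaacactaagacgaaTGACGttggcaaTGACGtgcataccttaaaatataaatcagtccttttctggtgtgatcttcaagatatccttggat
GSTU11: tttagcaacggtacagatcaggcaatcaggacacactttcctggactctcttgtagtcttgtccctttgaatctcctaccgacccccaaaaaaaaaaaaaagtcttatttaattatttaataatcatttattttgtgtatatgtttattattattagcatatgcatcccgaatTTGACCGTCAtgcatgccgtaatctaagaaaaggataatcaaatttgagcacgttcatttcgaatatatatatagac
GSTU9: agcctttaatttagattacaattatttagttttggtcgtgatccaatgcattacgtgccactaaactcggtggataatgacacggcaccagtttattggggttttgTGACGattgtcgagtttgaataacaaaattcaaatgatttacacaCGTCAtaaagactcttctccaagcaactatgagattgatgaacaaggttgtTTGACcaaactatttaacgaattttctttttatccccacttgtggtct
GSTF7: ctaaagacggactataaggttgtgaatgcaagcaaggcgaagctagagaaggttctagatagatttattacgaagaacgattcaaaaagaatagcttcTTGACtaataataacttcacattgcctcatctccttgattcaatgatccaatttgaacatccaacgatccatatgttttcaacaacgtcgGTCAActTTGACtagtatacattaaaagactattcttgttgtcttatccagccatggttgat
GSTU27: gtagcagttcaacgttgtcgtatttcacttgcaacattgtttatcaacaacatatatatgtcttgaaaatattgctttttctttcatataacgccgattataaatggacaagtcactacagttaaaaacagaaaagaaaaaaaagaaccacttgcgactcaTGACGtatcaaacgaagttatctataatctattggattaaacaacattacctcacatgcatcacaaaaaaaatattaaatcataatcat

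GSTU1 holds a pair of TGACG cores that begin 77 and 65 bases before the gene start, and a pair of TTGAC cores further upstream. In GSTU11 a TTGAC and a TGACG on the other strand lie side by side. GSTU9 holds TGACG at 144 and 99 bases. GSTF7, which had the widest ratio of all members, holds 3 TTGAC cores and no TGACG. GSTU27, which was lower in mp clv3, holds TGACG too. These matches are letters in a window and describe no binding.

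In the other glutathione S-transferase classes few genes reached 2-fold. Of 12 such genes (zeta, theta, lambda, dehydroascorbate reductase and TCHQD types), 1 reached 2-fold on the higher side and 1 on the lower side, against 11.5% and 23.8% of all models, and the median log2 ratio was -0.13. GSTZ1, which acts in tyrosine breakdown, was the higher one, at 24.6 RPKM in WT and 56.4 RPKM in mp clv3 (2.29-fold higher, 2.14 to 2.45). Summed levels were 781 RPKM in WT and 816 RPKM in mp clv3. The difference between classes was not tested.

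Of 13 genes of glutathione synthesis, reduction and turnover, 3 reached 2-fold on the higher side and 1 on the lower. Over all models 11.5% were at least 2-fold higher and 23.8% lower. The median log2 ratio of these genes was 0.14. GGT1, which breaks down glutathione outside the cell, was at 3.35 RPKM in WT and 35.2 RPKM in mp clv3, 10.5-fold higher (9.40 to 11.8). PCS1, the phytochelatin synthase, was at 37.0 and 206.8 RPKM, 5.59-fold higher (5.39 to 5.80). GGCT2;1, which degrades glutathione inside the cell, was at 4.52 and 0.509 RPKM, 8.88-fold lower (5.75 to 13.8). Of the 11 ABCC transporter genes, 3 reached 2-fold on the higher side and 1 on the lower, against 11.5% and 23.8% of all models. Their median log2 ratio was 0.53. ABCC3, a carrier of glutathione conjugates, was at 18.7 RPKM in WT and 99.8 RPKM in mp clv3, 5.32-fold higher (5.16 to 5.50). ABCC7 was 4.75-fold higher (3.88 to 5.86), and ABCC10 was 4.64-fold lower (4.14 to 5.20).

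Other detoxification genes were mostly higher, 12 of 15 by 2-fold or more, against 2 that were lower, and their median log2 ratio was 2.25. Over all models 11.5% were at least 2-fold higher and 23.8% lower. This list was chosen with earlier results of these data known. The P450 gene CYP81D8 was at 3.55 RPKM in WT and 152 RPKM in mp clv3, 42.9-fold higher (38.2 to 48.1). The glucosyltransferase gene UGT73B3 was 40.2-fold higher (28.2 to 59.4), and UGT73B4, with 0 reads in WT and 2600 in mp clv3, was at least 427-fold higher. All 8 genes for TGA factors and their partners had intervals above 1, against 34.5% of all models, and 3 were at least 2-fold higher, against 11.5%. These were TGA1 (3.38-fold, 2.82 to 4.07), TGA5 (2.28-fold, 2.06 to 2.54) and NPR1, the salicylate receptor and TGA coactivator (4.80-fold, 4.54 to 5.06). TGA2 and TGA6 were 1.29-fold higher each, with intervals of 1.19 to 1.39 and 1.15 to 1.45, and SCL14, a GRAS partner of TGA factors, was 1.64-fold higher (1.57 to 1.71). Late anthocyanin genes, enzymes and regulators of the pathway that GSTF12 serves, were at least 2-fold higher in 4 of 7 cases, against 11.5% of all models. The whole interval lay beyond 2-fold for 2 of them, against 8.73% of all models. All 7 had low levels, with a sum of 5.27 RPKM in WT and 8.48 RPKM in mp clv3.

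**Figure D5:**
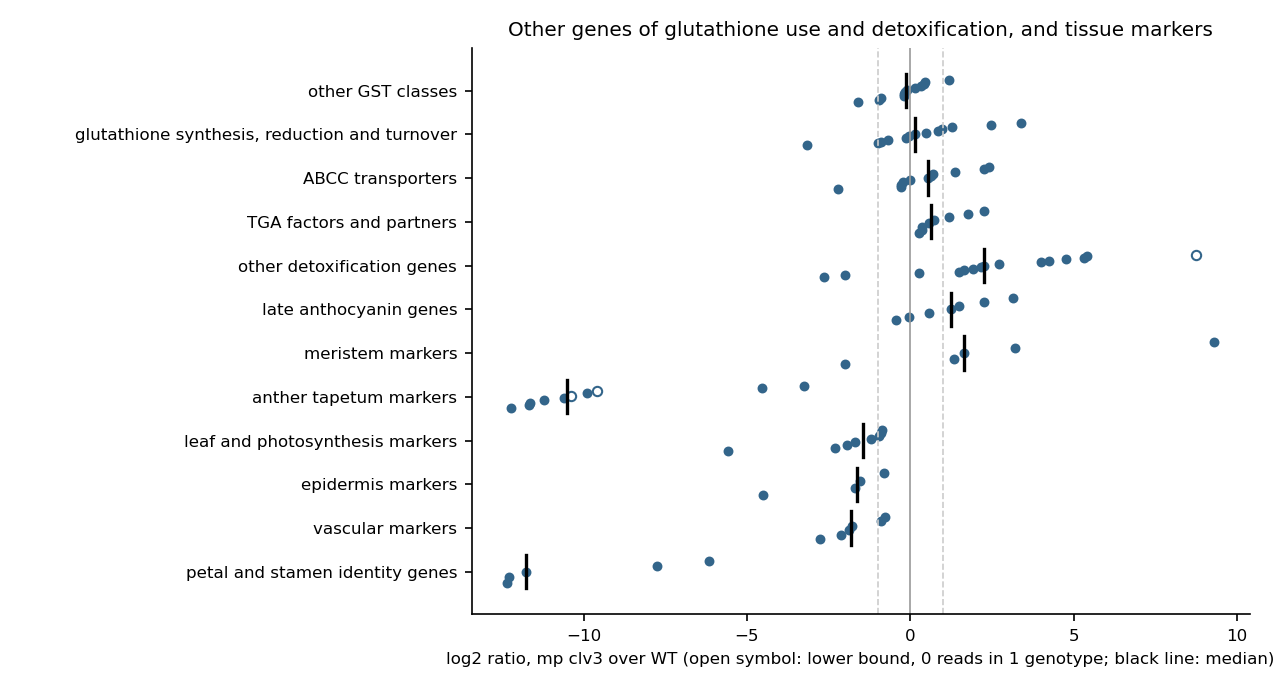
Log2 ratio of mp clv3 to WT for the genes of 12 other lists, 1 point per gene, with black lines at list medians, dashed lines at 2-fold and open symbols for bounds where 1 genotype had 0 reads. The list of other detoxification genes has its median at 2.25 and the other GST classes at -0.13, while all points of the tapetum, leaf, epidermis, vascular and petal and stamen lists lie below 0.

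Marker genes of other tissues differed between the genotypes as well. Of the mutated genes, MP was at 46.1 RPKM in WT and 14.5 RPKM in mp clv3, 3.18-fold lower (3.04 to 3.32). CLV3 had 2 reads in WT and 1278 in mp clv3, and the labels do not say whether its allele lowers the transcript. The meristem genes STM and WUS were 3.16-fold and 9.29-fold higher in mp clv3, CLV1 was 2.54-fold higher, and KNAT1 was 3.97-fold lower (3.71 to 4.25). All 5 listed meristem markers, CLV3 among them, were above the read floor. Over all models 23.8% were at least 2-fold lower, the share to set beside each marker count that follows. All 10 anther tapetum markers were at least 2-fold lower. Their summed level was 911 RPKM in WT and 20.6 RPKM in mp clv3, with 2 of them at 0 reads there. The list of petal and stamen identity genes also holds SEPALLATA genes, which act in other floral organs too. Its 5 genes went from 433 to 1.99 RPKM in sum, which is not a measure of petals and stamens alone. Leaf and photosynthesis markers went from 6828 to 2320 RPKM, with 5 of 8 at least 2-fold lower. Epidermis markers (3 of 4 at least 2-fold lower) went from 1185 to 318 RPKM, and vascular markers (4 of 6) from 130 to 42.9 RPKM. The part of tissue make-up in the ratios of the glutathione S-transferase genes was not tested, and genotype and tissue make-up cannot be told apart with 1 value per genotype.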

How the data were processed

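Poly(A) RNA of shoot apices was sequenced as strand-specific libraries in paired reads of 100 bases, per the labels' protocols. CASAVA 1.7, BWA and TAIR10 are listed, without a role, per the submitters' processing notes, and no source here states the counting rules. For each genotype the deposited table gives 1 column of reads, handled as estimated counts (0 is written as 0.5 and was set back to 0), and 1 column of RPKM, scaled by the authors to model length and total reads. A log2 ratio and an FDR, an adjusted p-value, are also in the authors' deposited table; neither was used, since the test is not stated. Of 27323 models, 1 with shifted cells was left out. With 1 column per genotype, no test across libraries was made.

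Models with 2 reads outnumbered those with 1 or 3 (717 against 99 and 88 in mp clv3), so intervals were computed on read pairs (read number divided by 2, rounded up; SciPy 1.17.1, checked on simulated data). The floor was 3 read pairs, or 6 reads, per genotype. A call means a ratio of at least 2-fold. Alternatives included TMM factors (edgeR 4.0.16), median-of-ratios size factors, pseudocounts of 1 and 5 RPKM and an RPKM minimum of 1. The members and the 12 other lists (104 genes) were chosen with earlier results of these data known. Every member is named; of other lists, up to 3 genes with the largest ratios among those with an RPKM of at least 1 and an interval beyond 2-fold, except that TGA and meristem genes may all be named. Gene spans, promoters and coding sequences came from RefSeq on TAIR10.1, whose gene table gives 39 of the 41 symbols. The deposited table itself holds locus identifiers only. Model lengths implied by reads and RPKM were compared with annotated transcripts for 17877 models with over 100 reads in mp clv3. They equalled an annotated transcript length in 14.5% of these. The counted models can therefore differ from the annotation used for overlaps, shared windows and promoters. Coding sequences were aligned globally in place of the planned proteins, which were not used here (Biopython 1.88; match 2, mismatch -1, gap -10 and -0.5).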

Additional observations from a re-analysis of the deposited data

How the results depend on the processing

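Under TMM and median-of-ratios scaling all log2 ratios shifted by 0.09 and 0.10, and the class medians were 1.65 and 1.66 for tau and 1.73 under both for phi. GSTU7 then passed 2-fold and GSTU28 changed sign, and no other member did either. A pseudocount of 1 RPKM gave a tau median of 0.93 and 0 phi genes at least 2-fold lower, and GSTU8, GSTU9, GSTU14, GSTU23, GSTF5, GSTF11 and GSTF13 no longer passed 2-fold. The shares over all models were then smaller as well, 8.01% higher and 12.8% lower. With 5 RPKM the tau median was 0.27, 5 genes passed 2-fold upward and 2 downward, and the phi median was 1.19 with 0 lower. Of all models, 5.03% were then at least 2-fold higher and 6.35% lower. In total 16 of 38 members no longer passed 2-fold with 5 RPKM. Requiring an RPKM of at least 1 left 9 phi genes, with a median of 1.88 and 0 lower, against 18.6% of the models kept. With no filter the phi median was 1.59. The late anthocyanin median changed sign to -0.028 when an RPKM of at least 1 left 3 genes. Depth limits GSTU14, whose counting interval reaches below 2-fold. No paired analysis was possible because the columns carry no replicate, and leaving out replicates was not run for the same reason.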
